A study of Mus musculus with 18 samples.

Results

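Lysosomal enzymes and membrane proteins were followed in whole lungs of mice around birth, as 35 genes chosen by name: 8 proteases, 13 hydrolases of glycans and sulfated sugars, 6 hydrolases or activators of lipid breakdown, 6 membrane proteins and transporters and 2 regulators. A probe set was taken as a gene's when the array annotation gave it that single symbol. All 35 genes had one, and *Arsb* had a second, so that 36 of the 35556 probe sets on the array, and 35 of the 19938 genes with a symbol of their own, are described.

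RNA of whole lung was hybridized to Affymetrix Mouse Gene ST arrays, with 3 lungs in each of 6 groups and 18 arrays in all. *Scap* Δ/Δ mice carry floxed *Scap*, the SP-C-rtTA transgene and a tetO-driven Cre, so that doxycycline given to the dam deletes *Scap*, the escort protein of the SREBP lipid regulators, in respiratory epithelium. They were compared with *Scap* flox/flox littermates lacking rtTA or Cre at E18.5 and at PN1, the day of birth. *Insig1/2* Δ/Δ mice have floxed *Insig1*, which retains SCAP in the endoplasmic reticulum, deleted by the same transgenes and doxycycline in an Insig2-/- background, and were compared at E17.5 with *Insig1* flox/flox, Insig2-/- littermates lacking either transgene. The controls of that line therefore carry the *Insig2* knockout as well. Doxycycline was withdrawn days before the lungs were collected, the *Scap* colony was of mixed strain background, and lung cells outside the epithelium keep floxed *Scap* or *Insig1* in every group. Arrays are called by the end of their label, such as KO17 or C13.

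Values are log2 expression, and a difference of log2 values is given as deleted minus control or PN1 minus E18.5. *Scap* was 9.47, 9.25 and 9.22 in E18.5 *Scap* Δ/Δ lungs, against 9.75, 9.71 and 9.71 in controls, and 9.54, 9.53 and 9.65 at PN1, against 9.91, 9.76 and 9.92 in controls. *Insig1* was 8.58, 8.28 and 8.21 in *Insig1/2* Δ/Δ lungs, against 10.002, 9.29 and 9.44 in controls. In each of these comparisons every deleted lung lay below every control, and the targeted RNA was lowered but not lost in whole lung.

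A pair of arrays, KO17 and KO18 of the *Scap* Δ/Δ group at PN1, stood apart from the other 16 before any gene was considered. Their medians were 7.674 and 7.704, against 7.42 to 7.499 on the others, their 90th percentiles 10.49 and 10.48, against 10.66 to 10.72, and their SDs over all probe sets 2.08 and 2.08, against 2.23 to 2.30. Both arrays thus had higher medians and lower upper values than the rest. KO16, the third lung of the same group, was not set apart in this way. The fits that use the PN1 *Scap* Δ/Δ lungs were therefore also made without KO17 and KO18. KO16 is then the only PN1 *Scap* Δ/Δ lung, and it is assumed to vary like the lungs of the other *Scap* groups, which alone give the SE.

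Lysosomes break down proteins, glycans and lipids with acid hydrolases, which are tagged with mannose 6-phosphate in the Golgi and delivered through endosomes, and a proton pump, the v-ATPase, keeps the lumen acid. TFEB and its relatives activate many of the genes together through a short palindromic element, the CLEAR motif, built around an E-box. In the lung both alveolar macrophages and type II cells use this machinery: macrophages are rich in lysosomes, and the lamellar bodies that store surfactant in type II cells are organelles related to them. In bulk RNA of whole lung, fewer cells of a type and less RNA per cell cannot be told apart.

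The E-box was looked for in the start regions of the genes, since the CLEAR motif of TFEB and its relatives is built around one. Windows of 250 bases before to 50 after the transcription start (RefSeq, GRCm38.p6) were given for 33 of the 35 genes, all but *Asah1* and *Ctsb*. The word CACGTG, which reads the same on both strands, was in 9 of 33 windows (27.3%), against 8.09% of 27025 genes. Its extension TCACGTGA was in 4 of 33 (12.1%), against 1.12% of all genes. The shorter word lies inside the longer, so the counts overlap. The 9 genes were *Ctsa*, *Ctsd*, *Ctsl*, *Gaa*, *Gla*, *Glb1*, *Lamp1*, *Mcoln1* and *Naglu*. The sequences below are shown because they carry the longer word, or, for *Lamp1*, because the word occurs 4 times within 68 bases, and for *Glb1* because this gene is taken up again over birth. All are written along the gene's own strand, and capitals mark the word.
Lamp1: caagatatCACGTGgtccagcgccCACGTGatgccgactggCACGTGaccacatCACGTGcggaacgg
Ctsa: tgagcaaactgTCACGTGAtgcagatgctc
Ctsd: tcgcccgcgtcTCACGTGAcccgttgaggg
Gla: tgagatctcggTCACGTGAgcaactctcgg
Mcoln1: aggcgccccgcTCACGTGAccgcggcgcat
Glb1: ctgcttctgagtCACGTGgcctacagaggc
They lie at chr8:13159092-13159159 for *Lamp1* (plus strand), chr2:164833749-164833778 for *Ctsa* (plus), chr7:142387908-142387937 for *Ctsd* (minus), chrX:134601182-134601211 for *Gla* (minus), chr8:3500462-3500491 for *Mcoln1* (plus) and chr9:114401018-114401047 for *Glb1* (plus). Each word in capitals lies upstream of an annotated start. For *Ctsa*, which was given with 2 windows, that start lies inside the gene, whose span begins at chr2:164832872. *Ctsa* and *Gla* each hold a second TCACGTGA in their windows. A word in a window is a description of the sequence and not a bound site.

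**Figure D1:**
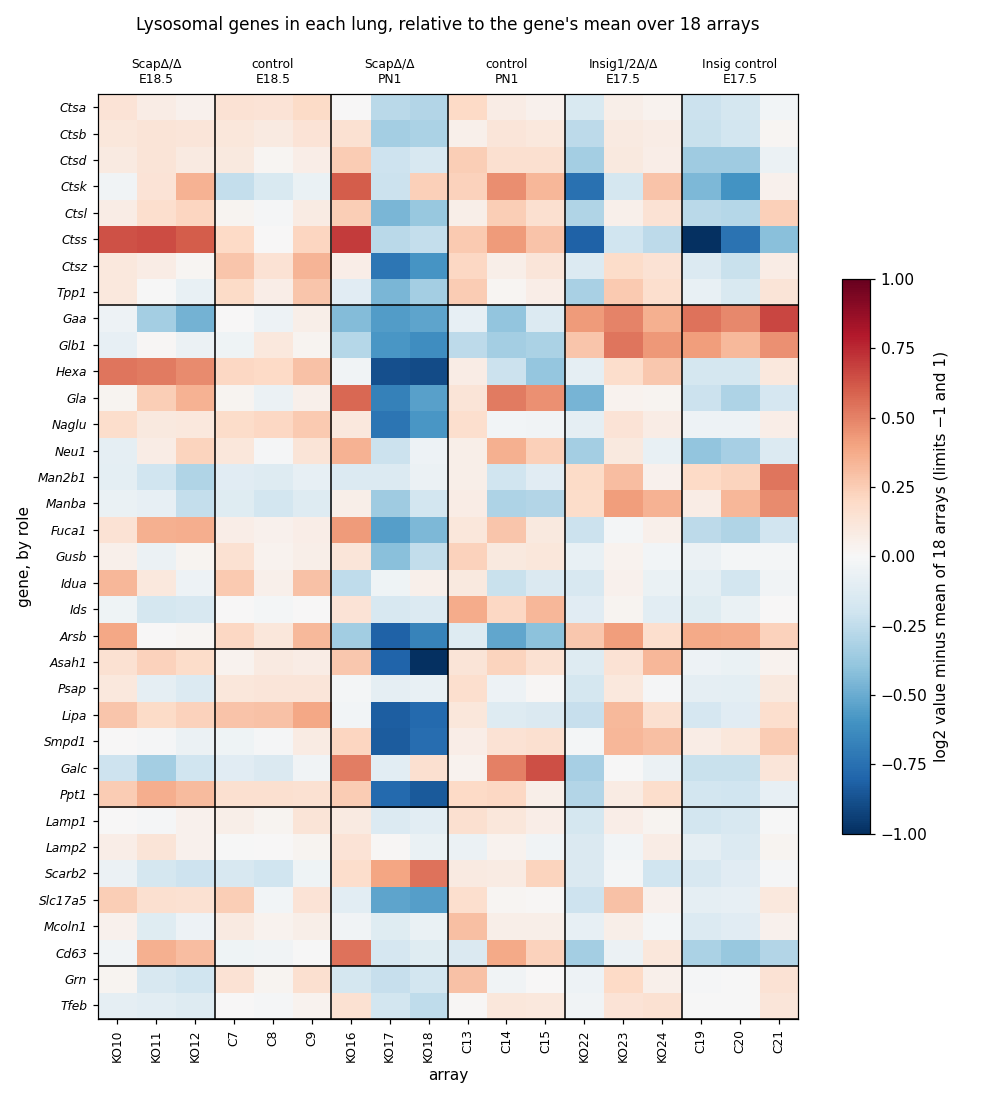
Log2 value of each of the 35 lysosomal genes (rows, by role) on each of the 18 arrays (columns, by group), minus the gene's mean over the 18 arrays, with colours limited at -1 and 1. The columns of KO17 and KO18 are below the mean for most genes, *Scarb2* is above it on both, and the Insig line is above it for *Gaa* and *Glb1* in all 6 lungs.

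Genes differed in how far they varied over the 18 arrays. The SD was 0.08 for *Lamp2*, 0.11 for *Psap*, *Mcoln1* and *Lamp1* and 0.12 for *Tfeb*, against 0.53 for *Ctss*, 0.41 for *Hexa* and *Gaa*, 0.39 for *Arsb* and 0.37 for *Ctsk*. Roles were mixed along this order, since the membrane proteins *Scarb2*, *Slc17a5* and *Cd63* had 0.22, 0.24 and 0.27, and the hydrolase *Gusb* and the proteases *Ctsa* and *Ctsb* 0.15, 0.16 and 0.17. Leaving KO17 and KO18 out brought the SD of *Asah1* to 0.13, against 0.35 with them, and that of *Smpd1* to 0.13, against 0.31, while that of *Ctss* was 0.56, against 0.53.

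Among the proteases, *Ctss* (cathepsin S) trims the invariant chain for antigen presentation in macrophages and other presenting cells. *Ctss* was 10.36, 10.37 and 10.33 in E18.5 *Scap* Δ/Δ lungs, against 9.92, 9.73 and 9.94 in controls. In PN1 lungs *Ctss* was 10.42, 9.45 and 9.48 in *Scap* Δ/Δ mice and 9.99, 10.15 and 10.01 in controls. In E17.5 lungs it was 8.91, 9.52 and 9.46 in *Insig1/2* Δ/Δ mice and 8.68, 8.98 and 9.30 in controls. The 3 *Scap* Δ/Δ lungs lay above all controls at E18.5, whereas at PN1 KO16 lay above and KO17 and KO18 below all controls. The Insig groups overlapped each other, and all 6 of their lungs lay below all 6 Scap-line lungs of E18.5.

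*Ctsk* (cathepsin K), a collagen-degrading protease of osteoclasts, neighbours *Ctss* on chromosome 3 (GRCm38.p6, *Ctsk* at chr3:95499210-95509387 and *Ctss* at chr3:95526786-95556405). *Ctsk* was 7.48, 7.65 and 7.86 in E18.5 *Scap* Δ/Δ lungs, against 7.27, 7.36 and 7.45 in controls, and 8.11, 7.29 and 7.75 at PN1, against 7.74, 7.97 and 7.84 in controls. For *Ctsk* the Insig line gave 6.77, 7.34 and 7.80 in *Insig1/2* Δ/Δ lungs and 7.06, 6.91 and 7.55 in controls. The E18.5 groups did not overlap, and the other pairs did. KO22 was the lowest of the 18 arrays for *Ctsk* and KO16 the highest.

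*Ctsd* (cathepsin D), the main aspartic protease of lysosomes, was 11.93, 11.97 and 11.93 in E18.5 *Scap* Δ/Δ lungs, against 11.93, 11.86 and 11.90 in controls. *Ctsd* at PN1 was 12.10, 11.63 and 11.68 in *Scap* Δ/Δ lungs, against 12.09, 11.995 and 11.999 in controls, and in the Insig line 11.498, 11.93 and 11.90 in *Insig1/2* Δ/Δ lungs, against 11.49, 11.49 and 11.78 in controls. The groups overlapped in each pair. *Ctsl* (cathepsin L), a cysteine protease of most cells, was 11.53, 11.63 and 11.67 in E18.5 *Scap* Δ/Δ lungs, against 11.48, 11.44 and 11.54 in controls, and at PN1 11.70, 10.998 and 11.08, against 11.51, 11.71 and 11.62 in controls. *Insig1/2* Δ/Δ lungs had *Ctsl* at 11.15, 11.51 and 11.61, against 11.19, 11.17 and 11.69 in controls. Again all pairs overlapped, with KO17 and KO18 the lowest of the *Scap* line. *Tpp1*, a peptidase that takes tripeptides off protein ends, was 10.85, 10.51 and 10.63 in PN1 *Scap* Δ/Δ lungs, against 11.22, 10.99 and 11.04 in controls, with all 3 deleted lungs below all controls. At E18.5 *Tpp1* was 11.08, 10.97 and 10.90 in *Scap* Δ/Δ lungs and 11.17, 11.03 and 11.25 in controls, and at E17.5 10.65, 11.23 and 11.14 in *Insig1/2* Δ/Δ lungs and 10.89, 10.82 and 11.10 in controls, with overlap in both.

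Of the remaining proteases, *Ctsa* (a carboxypeptidase that also protects neuraminidase), *Ctsb* and *Ctsz* lay between 10.58 and 11.96 on every array. *Ctsh* (cathepsin H), which is not among the 35 genes, processes surfactant protein precursors in type II cells. *Ctsh* was 12.48, 12.47 and 12.57 in E18.5 *Scap* Δ/Δ lungs, against 12.37, 12.52 and 12.58 in controls, and 12.60, 12.10 and 12.14 at PN1, against 12.13, 12.50 and 12.49 in controls. *Ctsh* in the Insig line was 12.06, 12.56 and 12.47 in *Insig1/2* Δ/Δ lungs and 12.19, 12.17 and 12.43 in controls. Its groups overlapped in each pair.

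Of the glycan hydrolases, *Gaa* is the acid glucosidase that degrades lysosomal glycogen. *Gaa* was 9.87, 9.57 and 9.44 in E18.5 *Scap* Δ/Δ lungs, against 9.92, 9.87 and 9.97 in controls. At PN1 *Gaa* was 9.48, 9.36 and 9.39 in *Scap* Δ/Δ lungs, against 9.83, 9.52 and 9.78 in controls, and at E17.5 10.34, 10.41 and 10.27 in *Insig1/2* Δ/Δ lungs, against 10.46, 10.40 and 10.58 in controls. The deleted lungs lay below all controls at PN1, where KO16 shared the low values of KO17 and KO18. All 6 Insig lungs lay above all 12 *Scap* lungs for *Gaa*, and line and age cannot be told apart in that difference.

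*Hexa*, the alpha subunit of the hexosaminidase that degrades GM2 ganglioside, was 10.42, 10.41 and 10.36 in E18.5 *Scap* Δ/Δ lungs, against 10.10, 10.09 and 10.18 in controls. *Hexa* at PN1 was 9.86, 9.01 and 8.996 in *Scap* Δ/Δ lungs, against 9.96, 9.67 and 9.51 in controls. In the Insig line *Hexa* was 9.80, 10.06 and 10.16 in *Insig1/2* Δ/Δ lungs and 9.71, 9.72 and 9.998 in controls. It was thus highest in the E18.5 *Scap* Δ/Δ lungs, above all their controls, and lowest in KO17 and KO18. *Glb1*, the acid beta-galactosidase, was 9.54, 9.24 and 9.20 in PN1 *Scap* Δ/Δ lungs, against 9.56, 9.48 and 9.505 in controls, and 9.74, 9.83 and 9.77 at E18.5, against 9.78, 9.92 and 9.85 in controls. The 6 lungs of PN1 lay below the 6 of E18.5 for *Glb1*, and the Insig lungs, at 10.10, 10.35 and 10.25 in *Insig1/2* Δ/Δ mice and 10.24, 10.15 and 10.28 in controls, above both.

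*Fuca1*, which removes fucose, was 10.69, 10.90 and 10.90 in E18.5 *Scap* Δ/Δ lungs, against 10.61, 10.59 and 10.61 in controls, and 10.97, 9.99 and 10.10 at PN1, against 10.66, 10.82 and 10.64 in controls. *Fuca1* in the Insig line was 10.33, 10.52 and 10.59 in *Insig1/2* Δ/Δ lungs and 10.28, 10.24 and 10.35 in controls. The E18.5 groups were apart, and the PN1 deleted lungs lay on both sides of the controls. *Ids* and *Arsb* act on sulfated glycosaminoglycans. *Ids* was 10.36, 10.06 and 10.09 in PN1 *Scap* Δ/Δ lungs, against 10.59, 10.43 and 10.55 in controls, and 10.18, 10.04 and 10.06 at E18.5, against 10.22, 10.20 and 10.22 in controls. All 3 deleted lungs lay below all controls at both ages, and the Insig lungs overlapped, at 10.11, 10.25 and 10.11 in *Insig1/2* Δ/Δ mice and 10.10, 10.15 and 10.22 in controls.

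*Arsb* was 9.02, 8.55 and 8.70 in PN1 *Scap* Δ/Δ lungs, against 9.23, 8.85 and 8.95 in controls, and 9.75, 9.37 and 9.38 at E18.5, against 9.57, 9.48 and 9.69 in controls, by the brighter of its 2 probe sets. In the Insig line *Arsb* was 9.63, 9.79 and 9.54 in *Insig1/2* Δ/Δ lungs and 9.75, 9.74 and 9.59 in controls. Every PN1 lung lay below every E18.5 lung of the same genotype. The other probe set of *Arsb* showed the same order, with 8.08 to 8.22 in PN1 *Scap* Δ/Δ lungs, against 8.51 to 8.88 at E18.5, and 8.13 to 8.39 in controls at PN1, against 8.66 to 8.81 at E18.5. The other 7 glycan hydrolases were *Gla*, *Naglu*, *Neu1*, *Man2b1*, *Manba*, *Gusb* and *Idua*, between 8.11 and 10.60 on all arrays.

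*Lipa*, the acid lipase that frees cholesterol and fatty acids from lipoproteins taken up, was 10.82, 10.03 and 10.07 in PN1 *Scap* Δ/Δ lungs, against 10.96, 10.72 and 10.71 in controls, and 11.13, 11.04 and 11.08 at E18.5, against 11.13, 11.14 and 11.23 in controls. *Lipa* in *Insig1/2* Δ/Δ lungs was 10.62, 11.17 and 11.01, against 10.68, 10.74 and 11.02 in controls. KO16 lay among its controls and KO17 and KO18 were the lowest of all arrays. *Asah1* (acid ceramidase), *Smpd1* (acid sphingomyelinase) and *Ppt1* (a thioesterase that removes palmitate from proteins) also had KO17 and KO18 below all controls at PN1. Unlike for *Lipa*, KO16 lay above all controls in these genes. *Asah1* was 11.61, 10.54 and 10.33 in *Scap* Δ/Δ lungs and 11.47, 11.56 and 11.49 in controls. *Ppt1* was 11.54, 10.51 and 10.44 in *Scap* Δ/Δ lungs and 11.48, 11.49 and 11.34 in controls. KO16 lay above the controls and KO17 and KO18 below them in both genes. *Psap*, the saposin precursor, moved little, between 12.08 and 12.43 on all arrays, and *Galc*, the galactosylceramidase, lay between 9.52 and 10.50.

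Of the membrane proteins, *Lamp1* and *Lamp2*, the heavily glycosylated coat of the lysosomal membrane, were nearly level. *Lamp1* was 12.11, 11.88 and 11.92 in PN1 *Scap* Δ/Δ lungs, against 12.18, 12.14 and 12.09 in controls, and 12.03, 12.02 and 12.07 at E18.5, against 12.08, 12.05 and 12.15 in controls. *Lamp2* was 12.07, 11.94 and 11.86 in PN1 *Scap* Δ/Δ lungs, against 11.87, 11.96 and 11.89 in controls, and 11.996, 12.06 and 11.97 at E18.5, against 11.93, 11.94 and 11.96 in controls. The E18.5 groups of *Lamp2* were apart, by a difference of 0.07. In the Insig line *Lamp1* was 11.85, 12.09 and 12.05 in *Insig1/2* Δ/Δ lungs and 11.84, 11.86 and 12.02 in controls, and *Lamp2* was 11.78, 11.90 and 12.01 in *Insig1/2* Δ/Δ lungs and 11.84, 11.79 and 11.96 in controls, with overlap in both.

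*Scarb2* (LIMP-2), which carries glucocerebrosidase to the lysosome, was 11.13, 11.35 and 11.501 in PN1 *Scap* Δ/Δ lungs, against 11.04, 11.04 and 11.18 in controls. *Scarb2* at E18.5 was 10.90, 10.78 and 10.75 in *Scap* Δ/Δ lungs, against 10.80, 10.76 and 10.91 in controls, and at E17.5 10.81, 10.94 and 10.75 in *Insig1/2* Δ/Δ lungs, against 10.79, 10.84 and 10.94 in controls. It was the one gene of the 35 that was highest on KO17 and KO18. *Slc17a5*, the sialic acid exporter, was 10.99, 10.57 and 10.55 in PN1 *Scap* Δ/Δ lungs, against 11.26, 11.12 and 11.11 in controls, and 11.34, 11.26 and 11.25 at E18.5, against 11.34, 11.07 and 11.23 in controls. All 3 deleted lungs lay below all controls at PN1. *Insig1/2* Δ/Δ lungs had *Slc17a5* at 10.89, 11.39 and 11.14, against 11.01, 11.01 and 11.20 in controls.

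*Cd63*, a tetraspanin of late endosomes and lamellar bodies, was 10.97, 11.26 and 11.42 in *Insig1/2* Δ/Δ lungs, against 10.997, 10.93 and 11.02 in controls, with KO22 among the controls and the other two above them. In the *Scap* line *Cd63* was 11.27, 11.66 and 11.62 in E18.5 *Scap* Δ/Δ lungs, against 11.27, 11.28 and 11.31 in controls, and 11.86, 11.14 and 11.19 at PN1, against 11.17, 11.69 and 11.54 in controls. The groups overlapped at both ages. *Mcoln1*, the lysosomal calcium channel, lay between 10.51 and 10.95. *Grn* (progranulin), a secreted and lysosomal growth factor, was 11.60, 11.41 and 11.38 in E18.5 *Scap* Δ/Δ lungs, against 11.72, 11.60 and 11.74 in controls, and 11.40, 11.34 and 11.39 at PN1, against 11.87, 11.54 and 11.58 in controls. *Grn* was lower in all 3 deleted lungs than in all controls at both ages, KO16 included, and overlapped in the Insig line, at 11.52, 11.77 and 11.62 in *Insig1/2* Δ/Δ lungs and 11.56, 11.57 and 11.72 in controls. *Tfeb* itself was 8.66, 8.64 and 8.62 in E18.5 *Scap* Δ/Δ lungs, against 8.75, 8.74 and 8.78 in controls, and 8.90, 8.56 and 8.49 at PN1, against 8.76, 8.86 and 8.85 in controls. The E18.5 groups were apart, with a difference of -0.12, and the PN1 groups overlapped, as did those of the Insig line, at 8.71, 8.88 and 8.90 in *Insig1/2* Δ/Δ lungs and 8.75, 8.74 and 8.86 in controls.

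**Figure D2:**
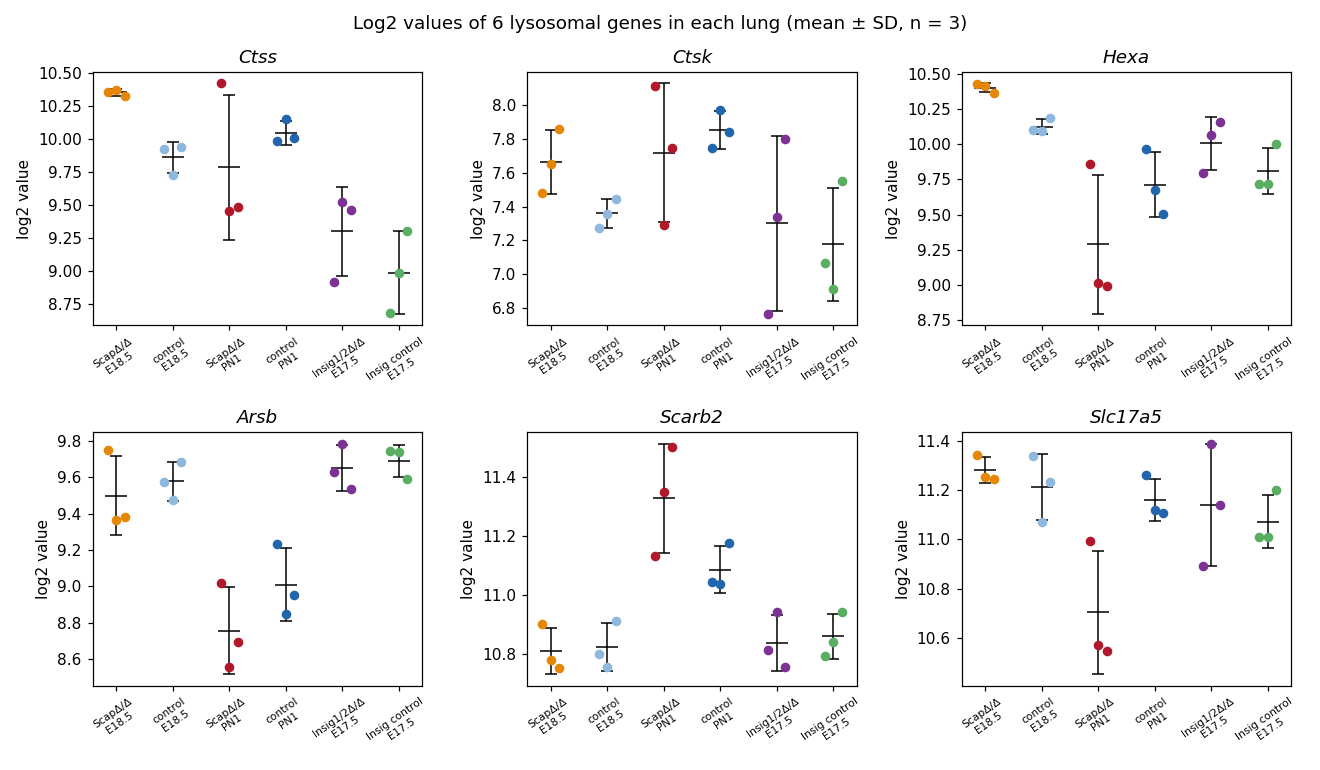
Log2 values of *Ctss*, *Ctsk*, *Hexa*, *Arsb*, *Scarb2* and *Slc17a5* in each lung (points) of the 6 groups, with the mean and SD of 3 lungs. At PN1 the lower *Scap* Δ/Δ points of *Ctss*, *Hexa*, *Arsb* and *Slc17a5* are KO17 and KO18, which are the upper points of *Scarb2*.

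Deletion of *Scap* changed no lysosomal gene past the test at E18.5. A gene was called at an adjusted p under 0.05 (limma, Benjamini-Hochberg over all probe sets tested), and 0 of 35 were, against 0.00877% of 22800 probe sets, with 1 gene higher (4.39% of probe sets) and 2 lower (4.85%) at an unadjusted p under 0.05. The median difference was -0.06, against -0.04 over all probe sets, and 21 genes were below 0 (58.3% of probe sets) and 14 above. The groups did not overlap for 7 genes that were higher (14.5% of all probe sets) and 8 that were lower (21%), so the shares of 35 were near those of the array. The higher genes were *Ctss*, *Ctsk*, *Hexa*, *Fuca1*, *Lamp2*, *Ppt1* and *Asah1*, and the lower ones *Grn*, *Psap*, *Ids*, *Tfeb*, *Ctsz*, *Galc*, *Naglu* and *Lipa*.

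*Ctss* differed by 0.49 (SE 0.21, adjusted p = 0.536), *Gaa* by -0.29 (SE 0.12, adjusted p = 0.535) and *Grn* by -0.22 (SE 0.10, adjusted p = 0.541). The SE pools the spread of all 4 *Scap* groups, KO16 to KO18 included. Without KO16 *Ctss* passed (adjusted p = 0.0274), 1 of 35 against 0.437% of probe sets, and without both KO17 and KO18 its adjusted p was 0.0512. By role, 5 of 8 proteases were above 0 (median 0.03), 4 of 13 glycan hydrolases (-0.07), 2 of 6 lipid hydrolases (-0.06), 3 of 6 membrane proteins (0.03) and 0 of 2 regulators (-0.17). The median of macrophage and monocyte markers was 0.08, with 13 of 20 above 0 and 7 below. *Tyrobp* was at 0.62 (limma, adjusted p = 0.536) and *Ms4a7* at 0.56 (adjusted p = 0.540). Others went the other way, with a mean *Csf1r* of 9.46, against 9.58 in controls, and *Itgam* of 7.48, against 7.69. With each array's mean of the 20 macrophage and monocyte markers as a covariate the difference of *Ctss* was 0.23 and that of *Hexa* 0.03, against 0.28 without it. This mean varied most within the PN1 *Scap* Δ/Δ group, from -0.32 on KO17 to 0.24 on KO16, so those lungs weigh most on the fitted slope. The part of macrophage content in the E18.5 differences was not tested. For type II markers the median was -0.16, with 6 of 10 below 0; their part in the lower values of *Gaa* and *Grn* was not tested.

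At PN1 deletion of *Scap* again changed none of the 35 genes past the test, but most values were lower in *Scap* Δ/Δ lungs. Of 35 genes 31 were below 0, against 57.9% of probe sets, and the median was -0.26, against -0.06 over all probe sets. No gene was called (0.00877% of probe sets were), 16 were lower at an unadjusted p under 0.05 (20.8% of probe sets) and 1, *Scarb2*, was higher (11.5%). The smallest adjusted p was 0.0897 (limma), shared by *Tpp1* at -0.42 (SE 0.11), *Ids* at -0.35 (SE 0.09) and *Slc17a5* at -0.46 (SE 0.12). The groups did not overlap for 7 genes, all lower (11% of probe sets, with 5.59% higher): *Tpp1*, *Ids*, *Slc17a5*, *Ctsa*, *Grn*, *Gaa* and *Mcoln1*. By role, the median was -0.54 for the 6 lipid hydrolases, all below 0, -0.30 for the glycan hydrolases with 11 of 13 below 0, -0.28 for the proteases with 8 of 8, -0.12 for the membrane proteins with 4 of 6, and -0.23 for both regulators.

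Most of these low values were those of KO17 and KO18. KO17 had 31 of the 35 genes below all 3 controls (49.4% of probe sets) and a median difference from the control mean of -0.46. KO18 had 28 below (48.1%) and a median of -0.35. KO16 had 8 below (31.5%), 12 above (27.9%) and a median of 0.06. *Scarb2* was the gene above all controls on KO17 (33.9% of probe sets) and on KO18 (35.3%). Without these arrays, with KO16 alone against the controls, the median over the 35 genes was 0.06, and *Tpp1* differed by -0.23 (SE 0.12, adjusted p = 0.567), *Ids* by -0.16 and *Slc17a5* by -0.17. Without KO16, in contrast, 27 of 35 genes were called, against 61.9% of all probe sets.

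The level of the genes moved with the result too. Among 5673 probe sets with a mean of at least 10 over the *Scap* arrays the median difference at PN1 was -0.19, against -0.06 over all, and for the 21 lysosomal genes in that range it was -0.29. Quantile normalization of the arrays brought the median of the 35 genes to -0.19, against -0.10 for all probe sets. Markers of macrophages had a median of -0.34, with 17 of 20 below 0, among them *C1qb* at -0.87 (adjusted p = 0.0914), *Cd14* at -0.84 (adjusted p = 0.0918) and *C1qc* at -0.77 (adjusted p = 0.0918). The 3 macrophage markers above 0 were *Mertk*, *Siglec1* and *Marco*. *Mertk* had a mean of 9.73 in *Scap* Δ/Δ lungs, against 9.31 in controls. Type II markers had a median of -0.37 with 9 of 10 below 0. Without KO17 and KO18, with KO16 alone against the controls, the median of macrophage markers was -0.036, with 12 of 20 below 0. That of type II markers was then -0.15, with 8 of 10 below 0. With the macrophage mean as covariate the median over the 35 genes was -0.025. The part of macrophage content, type II content and the compressed range of these arrays in the result was not tested.

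**Figure D3:**
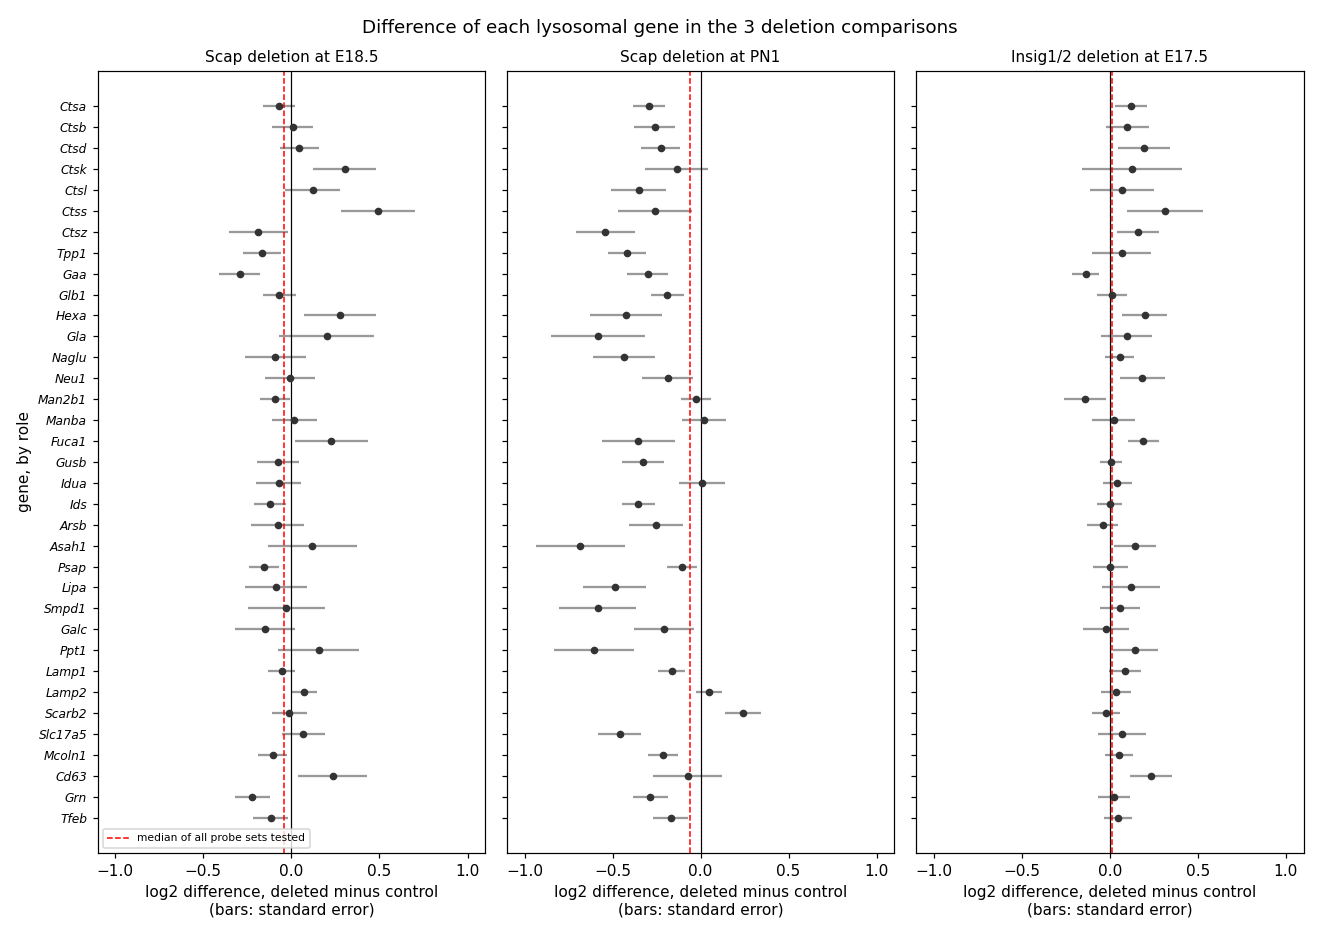
Difference in log2 value, deleted minus control, with its standard error, for the 35 genes by role in the 3 deletion comparisons, and the median of all probe sets tested as a dashed line. At PN1 31 of 35 genes are below 0 and *Scarb2* is the highest, while at E18.5 and at E17.5 the genes lie on both sides of the dashed line.

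Deletion of *Insig1* in the Insig2-/- background left the lysosomal genes without a call at E17.5. No gene of 35 was called, against 0% of 22775 probe sets, and none reached an unadjusted p under 0.05 by limma (2.2% of probe sets higher, 1.9% lower). Of 35 genes 30 were above 0, against 54.4% of probe sets, with a median of 0.07, against 0.01, and the 5 below were *Gaa*, *Man2b1*, *Arsb*, *Scarb2* and *Galc*. No gene had groups apart in either direction (5.83% of probe sets higher, 4.22% lower). *Fuca1* differed by 0.19 (SE 0.09), *Cd63* by 0.23 (SE 0.12) and *Gaa* by -0.14 (SE 0.08), all with an adjusted p of 0.758.

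Lungs of this line split within the groups. KO22 had 20 of 35 genes below all 3 controls (25.8% of probe sets) and none above (23.2%). KO23 had 27 above all controls (36.4%) and KO24 had 19 (37.3%). Over the genes C21 lay with KO23 and KO24, and C19 and C20 with KO22, and the mean of the macrophage markers, relative to its 18-array mean, put the 6 lungs in the same order. It was -0.45 on KO22, -0.05 on KO23 and -0.06 on KO24, against -0.43 on C19, -0.41 on C20 and -0.24 on C21. The same mean of type II markers was -0.29 on KO22, 0.13 on KO23 and -0.05 on KO24, against -0.21 on C19, -0.50 on C20 and 0.12 on C21. The split was not particular to macrophage markers. The mean of airway cell markers was -0.49 on KO22, -0.44 on C19 and -0.33 on C20, against -0.10 on C21, -0.07 on KO23 and 0.05 on KO24. That of type I markers was -0.40, -0.16 and -0.46, against -0.01, 0.06 and 0.02, on the same lungs. Endothelial markers did not split so, with 0.12 on C21 and -0.13 on KO24. The part of any of these cells in the split was not tested.

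Birth was compared as PN1 minus E18.5, within *Scap* Δ/Δ lungs and within controls. In *Scap* Δ/Δ lungs 12 of 35 genes were called, against 37.6% of probe sets. *Scarb2* rose by 0.52 (SE 0.10, adjusted p = 0.00803), 1 gene against 17.5% of probe sets that were higher. The 11 that fell, against 20.1% of probe sets, were *Hexa* at -1.11 (SE 0.20, adjusted p = 0.00638), *Arsb* at -0.74 (adjusted p = 0.00968), *Glb1* at -0.45 (adjusted p = 0.0100), *Slc17a5* at -0.58 (adjusted p = 0.0109), *Lipa* at -0.77 (adjusted p = 0.0145), *Ppt1* at -0.77, *Ctsa* at -0.28, *Naglu* at -0.53, *Tpp1* at -0.31, *Ctsz* at -0.48 and *Asah1* at -0.70. They include enzymes of every hydrolase group and 1 transporter. The median over the 35 genes was -0.22, against -0.03 over all probe sets.

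The calls depended on the arrays in the fit. With only the 2 groups compared in the fit no gene of the 35 was called (0.281% of probe sets by limma, 0.0219% by an unmoderated t-test). Without KO17 and KO18, which leaves 1 lung at PN1, no gene was called, against 6.2% of probe sets, and the median was 0.06; *Hexa* then differed by -0.54 (SE 0.14, adjusted p = 0.0593) and *Scarb2* by 0.32 (SE 0.10, adjusted p = 0.0912). Without KO16 21 genes were called, against 72.1%. Leaving out C13 gave 11, KO17 or KO18 alone 5, KO10, KO11 or KO12 alone 6, and C7, C8, C9, C14 or C15 alone 7. The share of all probe sets called in these fits is not given here, so the counts show only how calls move with 1 array. With all 12 arrays 34.3% of the 35 genes were called, against 37.6% of probe sets. *Arsb*, *Glb1*, *Hexa*, *Scarb2* and *Slc17a5* were called in each of the 12 fits that left out 1 array. How many other probe sets were called as often is not given either, so this is no result particular to these genes. Macrophage markers had a median of -0.39 over birth in *Scap* Δ/Δ lungs, with 14 of 20 below 0. Without KO17 and KO18 that median was -0.05, with 11 of 20 below 0. With the mean of these markers as covariate no lysosomal gene was called and the median of the 35 genes was 0.08. The part of macrophage content in these changes was not tested.

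In controls 0 of 35 genes were called over birth, against 2.58% of probe sets, with 4 higher (6.21%) and 3 lower (7.25%) at an unadjusted p under 0.05. The median was 0.02, against 0.01 over all probe sets, with 18 genes above 0 (52.1% of probe sets) and 17 below. *Arsb* was nearest at -0.57 (SE 0.15, adjusted p = 0.0853). Others were *Glb1* at -0.33 (SE 0.09, adjusted p = 0.104), *Ids* at 0.31 (SE 0.09, adjusted p = 0.130), *Galc* at 0.49, *Ctsk* at 0.49, *Scarb2* at 0.26 and *Idua* at -0.29. The ages did not overlap for 9 genes that were higher at PN1 (17.6% of probe sets), namely *Ids*, *Galc*, *Ctsk*, *Scarb2*, *Gla*, *Ctsd*, *Ctss*, *Fuca1* and *Asah1*, and for 6 that were lower (16.5%), namely *Arsb*, *Glb1*, *Lipa*, *Hexa*, *Gaa* and *Naglu*.

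Control lungs are the same in every fit, but the spread used to test them was shared with the deleted groups. Without KO17 and KO18 8 genes passed, against 11% of probe sets: *Ctsk*, *Galc*, *Ids* and *Scarb2* were higher and *Arsb*, *Glb1*, *Hexa* and *Lipa* lower at PN1. Without KO16 8 passed as well, against 12%. With only the 2 control groups in the fit, *Arsb* (adjusted p = 0.0187), *Ctsk* (0.00967), *Glb1* (0.0156), *Ids* (0.0212) and *Lipa* (0.0300) passed, against 11.1% of probe sets. Beside these differences, the mean of 10 neutrophil markers, minus its mean over 18 arrays, was 0.63 to 0.79 in controls at PN1, against -0.35 to -0.10 at E18.5. The same mean of 20 macrophage markers was 0.15 to 0.26 at PN1, against 0.05 to 0.23 at E18.5. Their part in the result was not tested.

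**Figure D4:**
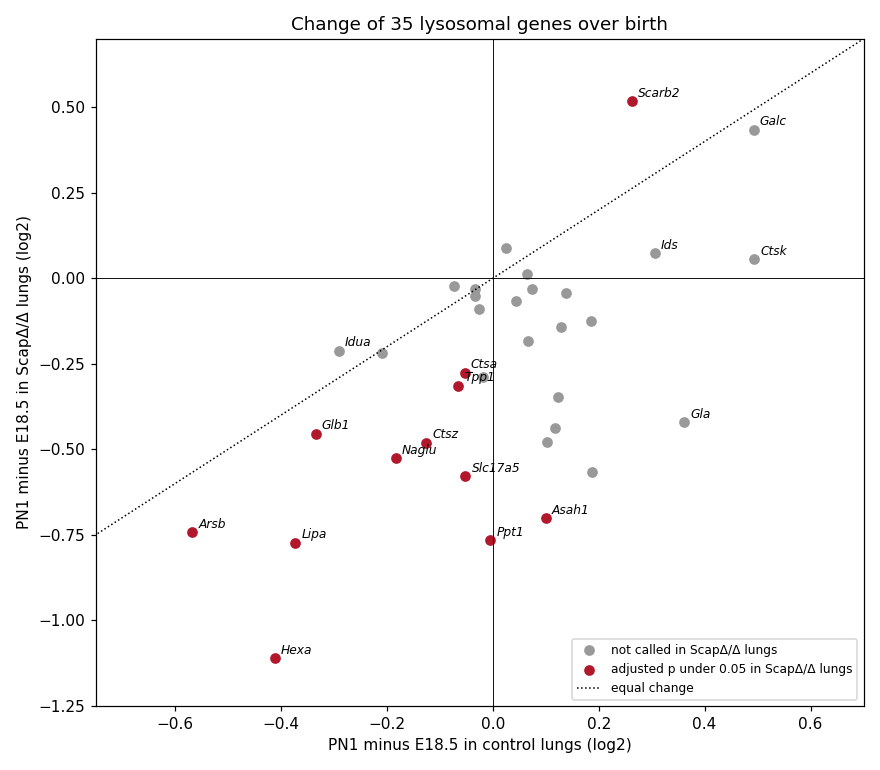
Log2 difference over birth (PN1 minus E18.5) of the 35 genes in *Scap* Δ/Δ lungs (vertical) against controls (horizontal), with genes called in *Scap* Δ/Δ lungs in red and the line of equal change dotted. *Hexa*, *Lipa*, *Ppt1*, *Asah1* and *Slc17a5* lie below the line, *Scarb2* above it, and *Glb1*, *Galc* and *Arsb* near it; the axes share no arrays.

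The difference between the PN1 and the E18.5 effect of *Scap* deletion passed for 0 of 35 genes (0% of probe sets), with a median of -0.25, against -0.03 over all probe sets. At an unadjusted p under 0.05 there were 5 genes, all lower at PN1 (10.1% of probe sets, with 8.25% higher): *Slc17a5* at -0.53 (SE 0.17), *Ctss* at -0.75, *Hexa* at -0.70, *Ppt1* at -0.76 and *Asah1* at -0.80, with an adjusted p of 0.265 in each. Without KO17 and KO18 the median was 0.04, and without KO16 22 genes passed, against 58.4% of probe sets.

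Macrophage content was set beside the genes on each array as the mean log2 value of 20 macrophage and monocyte markers, none of them among the 35, minus its mean over the 18 arrays. It was 0.24 to 0.34 in E18.5 *Scap* Δ/Δ lungs, against 0.05 to 0.23 in controls. At PN1 it was 0.24 on KO16, -0.32 on KO17 and -0.25 on KO18, against 0.15 to 0.26 in controls. In the Insig line it was -0.45 to -0.05 in *Insig1/2* Δ/Δ lungs, against -0.43 to -0.24 in controls. All 20 markers passed the filter on low values in the *Scap* line, and 18 did in the Insig line, all but *Aif1* and *Ms4a7*.

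The mean of the 35 lysosomal genes, taken the same way, was 0.06 to 0.09 in E18.5 *Scap* Δ/Δ lungs, against 0.03 to 0.11 in controls. At PN1 it was 0.12 on KO16, -0.38 on KO17 and -0.32 on KO18, against 0.06 to 0.11 in controls, and in the Insig line -0.16 to 0.13 in *Insig1/2* Δ/Δ lungs, against -0.12 to 0.08 in controls. KO17 and KO18 were low in both means, and KO22, C19 and C20 were the lowest of the rest in both. C21, KO23 and KO24 had lysosomal means of 0.08 to 0.13 with macrophage means below 0. Depth is not given for arrays, and their number limits the precision.

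**Figure D5:**
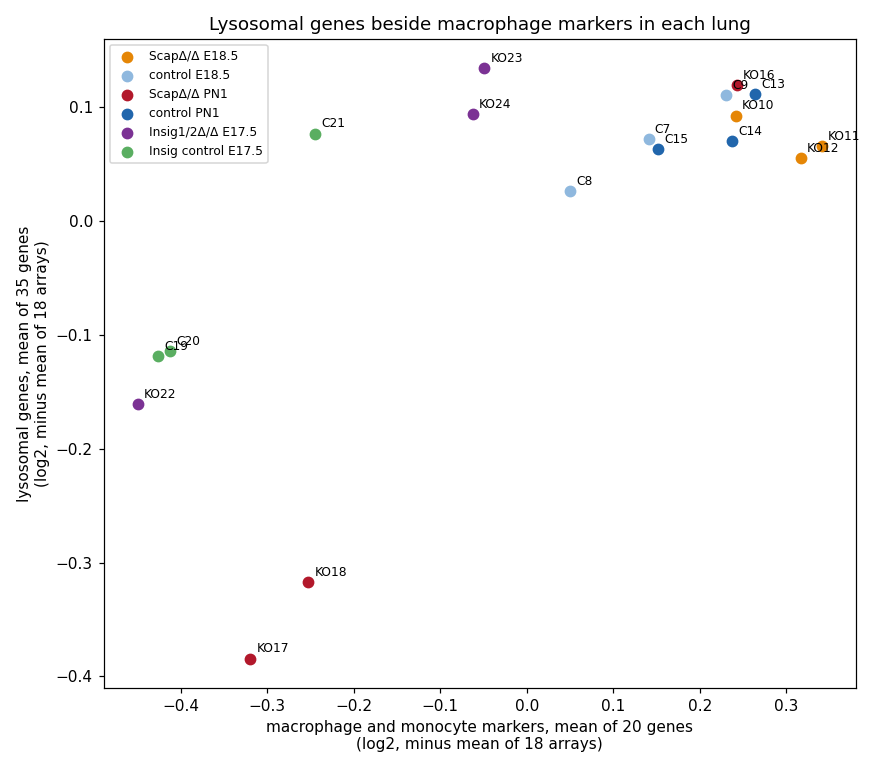
Mean of the 35 lysosomal genes (vertical) against the mean of 20 macrophage and monocyte markers (horizontal), each as log2 minus its mean over 18 arrays, with 1 labelled point per lung coloured by group. KO17 and KO18 are lowest on the vertical axis at -0.38 and -0.32, and KO22, C19 and C20 lowest on the horizontal axis.

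Other genes of the lysosomal pathway were read from lists by function. No gene of these lists was called for deletion at any age. At PN1 the 19 other hydrolases and cofactors that entered the fit were all below 0, with a median of -0.39, and so were 12 of 14 v-ATPase subunits (-0.37), 7 of 9 MiT/TFE factors and signalling components (-0.33), 10 of 16 other membrane proteins (-0.12) and 5 of 8 sorting genes (-0.17). *Nagpa*, which uncovers the mannose 6-phosphate tag, differed by -0.75, *Ctns*, the cystine exporter, by -0.62 and *Tfe3*, a relative of TFEB, by -0.56 (each adjusted p = 0.0897). Without KO17 and KO18 the medians were 0.01 for the other hydrolases, with 9 of 19 below 0, and 0.12 for the v-ATPase subunits, with 3 of 14 below 0. They were then 0.09 for the MiT/TFE list, -0.09 for the other membrane proteins and -0.08 for the sorting genes, with *Nagpa* at -0.24, *Ctns* at -0.21 and *Tfe3* at -0.20. At E18.5 11 of 14 v-ATPase subunits were above 0 with a median of 0.14, *Atp6v0b* at 0.37 (adjusted p = 0.514) among them, and 7 of 8 sorting genes were below 0 (-0.11). *Insig1/2* Δ/Δ lungs had 12 of 14 v-ATPase subunits above 0 (0.12).

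Over birth 3 of the 66 genes of these lists were called in controls, against 2.58% of probe sets: *Tpcn2*, a lysosomal ion channel, rose by 0.62 (adjusted p = 0.0409), *Atp6v0a1*, a v-ATPase membrane subunit, rose by 0.49 (adjusted p = 0.0437), and *Ctsf*, a cathepsin, fell and was at -0.57 (adjusted p = 0.0322). In *Scap* Δ/Δ lungs *Tpcn2* rose by 1.06 (adjusted p = 0.00170), while *Siae*, an esterase of sialic acids, was at -0.97 (adjusted p = 0.00399) and *Ctso*, a cathepsin, at -0.93 (adjusted p = 0.00581). In those lungs, where 20.1% of probe sets fell and 17.5% rose, 9 of 19 other hydrolases fell and none rose, 4 of 14 v-ATPase subunits fell and 1 rose, 3 of 16 other membrane proteins fell and 3 rose, 3 of 9 MiT/TFE genes fell and none rose, and 1 of 8 sorting genes fell and none rose. Without KO17 and KO18 1 of the other hydrolases was called, *Siae* at -0.71 (adjusted p = 0.0485), as were 2 other membrane proteins, *Tpcn2* at 0.86 (adjusted p = 0.0230) among them, and none of the other lists, against 6.2% of probe sets.

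The differences of genes with the E-box in the window are set beside those of the rest, with no test. For *Scap* deletion the median of the 9 genes with the word was -0.07 at E18.5, against -0.05 for the 24 without it, and -0.29 at PN1, against -0.26. For *Insig1/2* deletion it was 0.07, against 0.05. Over birth it was -0.28 in *Scap* Δ/Δ lungs, against -0.15 for the 24 without the word, and in controls 0.04, against 0.01. Without KO17 and KO18 it was 0.02 for PN1 deletion, against 0.06, and over birth in *Scap* Δ/Δ lungs 0.0049, against 0.07. The 9 genes covered most of the range of SDs over the 18 arrays, with 0.11 for *Lamp1* (4 copies) and *Mcoln1* (2), 0.36 for *Gla* (2) and *Glb1* (1) and 0.41 for *Gaa* (1).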

How the data were processed

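Log2 expression values per probe set were used as deposited by the authors, who hybridized RNA of whole lung to Affymetrix Mouse Gene ST arrays and analysed them in GeneSpring GX. The summarization and normalization behind the log2 values are not given in the sources used here. Groups were taken from the sample labels, and the methods call the 3 lungs of a group biological replicates. *Scap* Δ/Δ lungs of E17.5 and the microRNA arrays were not analysed here.

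A probe set entered a fit when its value reached the 35th percentile of the array on 66% or more of that fit's arrays, the filter given in the study's methods. limma 3.58.1 in R 4.3.3 was fitted with group means to the 12 arrays of the *Scap* line (22800 probe sets) and to the 6 of the *Insig* line (22775). p was adjusted by Benjamini-Hochberg over all probe sets of a fit, with calls at an adjusted p under 0.05. Of the probe sets 21789 carry 1 symbol, 1621 several and 12146 none; each gene entered with its brightest probe set of 1 symbol, and all 35 passed the filter in both fits. The fit was tested on simulated data with independent normal noise. No simulated array had a compressed range, so that test does not cover the case of KO17 and KO18. The members and lists were chosen with earlier results of these data known. Values per array are given for genes called (at most 6 per comparison), the 3 smallest p per deletion comparison, and *Tfeb*, *Lamp1*, *Lamp2*, *Ctsd*, *Ctsk*, *Ctss*, *Ctsl*, *Lipa* and *Ctsh*; *Asah1* and *Ppt1* were added after their values were seen. Alternatives were other filters, quantile normalization, median centring, other sets of arrays, a trend in the spread, array weights, gene means, an unmoderated t-test (which the methods name for the *Insig* arrays, with an ANOVA for *Scap*), the macrophage mean as covariate and leaving out arrays. Leaving KO17 and KO18 out of the other lists, the cell marker lists and the E-box medians was added after the values were seen. Python 3.11.15 with pandas 2.3.3, numpy 2.4.6 and matplotlib 3.10.9 was used for tables and plots.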

Additional observations from a re-analysis of the deposited data

How the results depend on the processing

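With 3 lungs a group, 1 lung weighs heavily on a call. At E18.5 the lysosomal median stayed below 0 under all alternatives, at PN1 it turned only without both KO17 and KO18, and for *Insig1/2* deletion only with the macrophage covariate (-0.044). No paired analysis was possible because each array carries a number of its own and the groups share none. An unmoderated t-test, named in the methods for the *Insig* arrays and with stricter limits, also called 0 in the 3 deletion comparisons at an adjusted p under 0.05. The cause of the changes below was not tested.

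Genes called out of 35 stayed at 0 for *Scap* deletion at E18.5 except with array weights (2, against 11.2% of all probe sets) and with 1 array left out (0 to 1). At PN1 they were 5 with all 18 arrays in the fit (13.2% of probe sets), 30 with array weights (68.1%) and 0 to 27 with 1 array left out, the 27 being without KO16 (61.9%). For *Insig1/2* deletion they were 19 with array weights (36.7%) and 0 to 0 with 1 array left out. Over birth in *Scap* Δ/Δ lungs they were 0 with only the groups compared (0.281%), 0 with the t-test (0.0219%), 0 with the macrophage covariate (2.44%), 0 without KO17 and KO18 (6.2%), 24 with array weights (76.1%) and 5 to 21 with 1 array left out. Over birth in controls they were 1 with all 18 arrays (3.79%), 5 with only the groups compared (11.1%), 7 with array weights (12.5%), 1 with gene means (4.65%), 6 with the macrophage covariate (8.88%), 8 without KO17 and KO18 (11%) and 0 to 8 with 1 array left out. For the PN1 effect minus the E18.5 effect they were 23 with array weights (64.4%) and 0 to 22 with 1 array left out. Among the 12 *Scap* arrays the weights were lowest for KO16 at 0.0489 and highest for KO17 at 10.05, with 0.79 for KO18. Calls with array weights that use PN1 *Scap* Δ/Δ lungs therefore rest most on KO17, an array with a compressed range. The ranges with 1 array left out show how far the counts move and are no result about these genes.

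The median difference at E18.5 was -0.016 with median centring, -0.13 with the macrophage covariate and -0.055 to -0.020 with 1 array left out. At PN1 it was -0.025 with the covariate, 0.060 without KO17 and KO18 and -0.39 to -0.18 with 1 left out. For *Insig1/2* deletion it was 0.01 to 0.17 with 1 left out. Over birth in *Scap* Δ/Δ lungs it was 0.075 with the covariate, 0.064 without KO17 and KO18 and -0.35 to -0.19 with 1 left out, and in controls -0.034 with the covariate and -0.01 to 0.04 with 1 left out. For the PN1 effect minus the E18.5 effect it was -0.42 with median centring, -0.42 with array weights, 0.11 with the covariate, 0.040 without KO17 and KO18 and -0.34 to -0.18 with 1 left out. Median centring set the median of all probe sets at PN1 at -0.19, against -0.06 as deposited, and the range of the lysosomal mean over the 18 arrays at 0.77, against 0.52. Over birth in *Scap* Δ/Δ lungs *Ctsk* turned to -0.40 with array weights and *Naglu* to 0.0080 with the covariate.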
